A study of Mus musculus with 6 samples.

Results

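The collagen chain genes described here are all genes in an expression table of mouse rib chondrocytes whose symbol has the form of a collagen type and chain number, with Col10a1, the hypertrophic chain, left out. They number 40 of the 27734 genes in the table. RNA came from chondrocytes, the cells of cartilage, freed from E18.5 embryonic ribs by pronase and overnight collagenase and collected without culture. There were 3 mutant libraries (Jab1flox/flox; Col2a1-Cre, in which Cre under the Col2a1 promoter acts in cells that have used this cartilage promoter) and 3 libraries labelled wild type, whose floxed or Cre alleles, if any, the labels do not give. The labels do not say either that libraries are separate embryos, so the p-values here reflect spread between libraries that can be technical. Libraries are named by the number of their table column.

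Collagens are trimers of chains wound into a helix. Fibrillar chains form the banded fibrils of connective tissue, and the cartilage fibril is built from types II, IX and XI. FACIT chains (fibril-associated collagens with interrupted triple helices) sit on such fibrils, network chains form lattices, basement-membrane chains form the mats under epithelia and around vessels, and the beaded filaments of type VI surround cells, in cartilage next to the chondrocyte. The cartilage chains Col2a1, Col9a1 and Col11a1 have no row in the table used and were not analysed here, so the cartilage fibril is seen through Col11a2, Col9a2 and Col9a3. The members were 9 fibrillar, 8 FACIT, 2 network, 9 basement-membrane (type IV with Col7a1, Col15a1 and Col18a1), 6 beaded-filament and 4 transmembrane chains and 2 others.

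The authors deposited levels as FPKM, which divide the fragments of a gene by its length and by the depth of its library, so chains can be compared with each other. Columns totalled 571180 to 631534 FPKM, and the table gives no read counts. Per the labels' protocols, single-end reads of 50 bases were made. Cops5, which encodes Jab1, fell in mutant libraries, with 17.0, 18.0 and 17.2 FPKM in mutant and 42.3, 39.8 and 40.1 FPKM in wild-type libraries (log2 fold change -1.18, SE 0.0599, limma adjusted p = 6.5e-04). Here and below, the values of a group follow the order of columns 0, 1 and 2. All 10 chondrocyte markers were measured, at a summed 5192 to 7854 FPKM in mutant and 7643 to 8018 FPKM in wild-type libraries. In bulk RNA, fewer cells of a type and less RNA per cell cannot be told apart. The summed level of 4 Y-linked genes was 14.6, 82.8 and 71.7 FPKM in mutant and 0.214, 0.0281 and 0.639 FPKM in wild-type libraries, and Xist, made by the inactive X chromosome, was 37.3, 0.0176 and 0.0244 FPKM in mutant and 63.1, 64.6 and 65.9 FPKM in wild-type libraries. Every mutant library thus differs from the wild-type libraries in sex-linked RNA as well as in genotype. Mutant columns 1 and 2 have Y-linked RNA and almost no Xist, and mutant column 0 has both kinds. The title of wild-type column 0 bears the day 30 and all other titles bear the day 24, and what this date marks is not given.

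Differences were fitted with limma on log2(FPKM + 1) for the 14012 genes averaging 1 FPKM or more, among them 28 of the chains. Fold changes are mutant minus wild type on that scale, which understates changes of low genes, and a chain is said to rise or fall where its Benjamini-Hochberg adjusted p over all genes was under 0.05. Of the 28 chains 1 rose, Col18a1, 0 fell and 27 did not pass. Among all genes tested 3.48% rose and 2.59% fell (6.07% together), so the chains' share is near the background. At an unadjusted limma p under 0.05 there were 4 chains higher and 1 lower, where 12.7% of all genes tested were higher and 12.0% lower (24.7% together). The median log2 fold change was -0.00 over all genes and 0.05 over the chains, 16 of them positive and 12 negative. In 3 of the 28 chains, Col18a1, Col8a1 and Col4a1, all higher in mutant libraries, the groups did not overlap. The share without overlap over all genes was 32.2% (16.3% higher and 15.9% lower in mutant libraries).

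**Figure D1:**
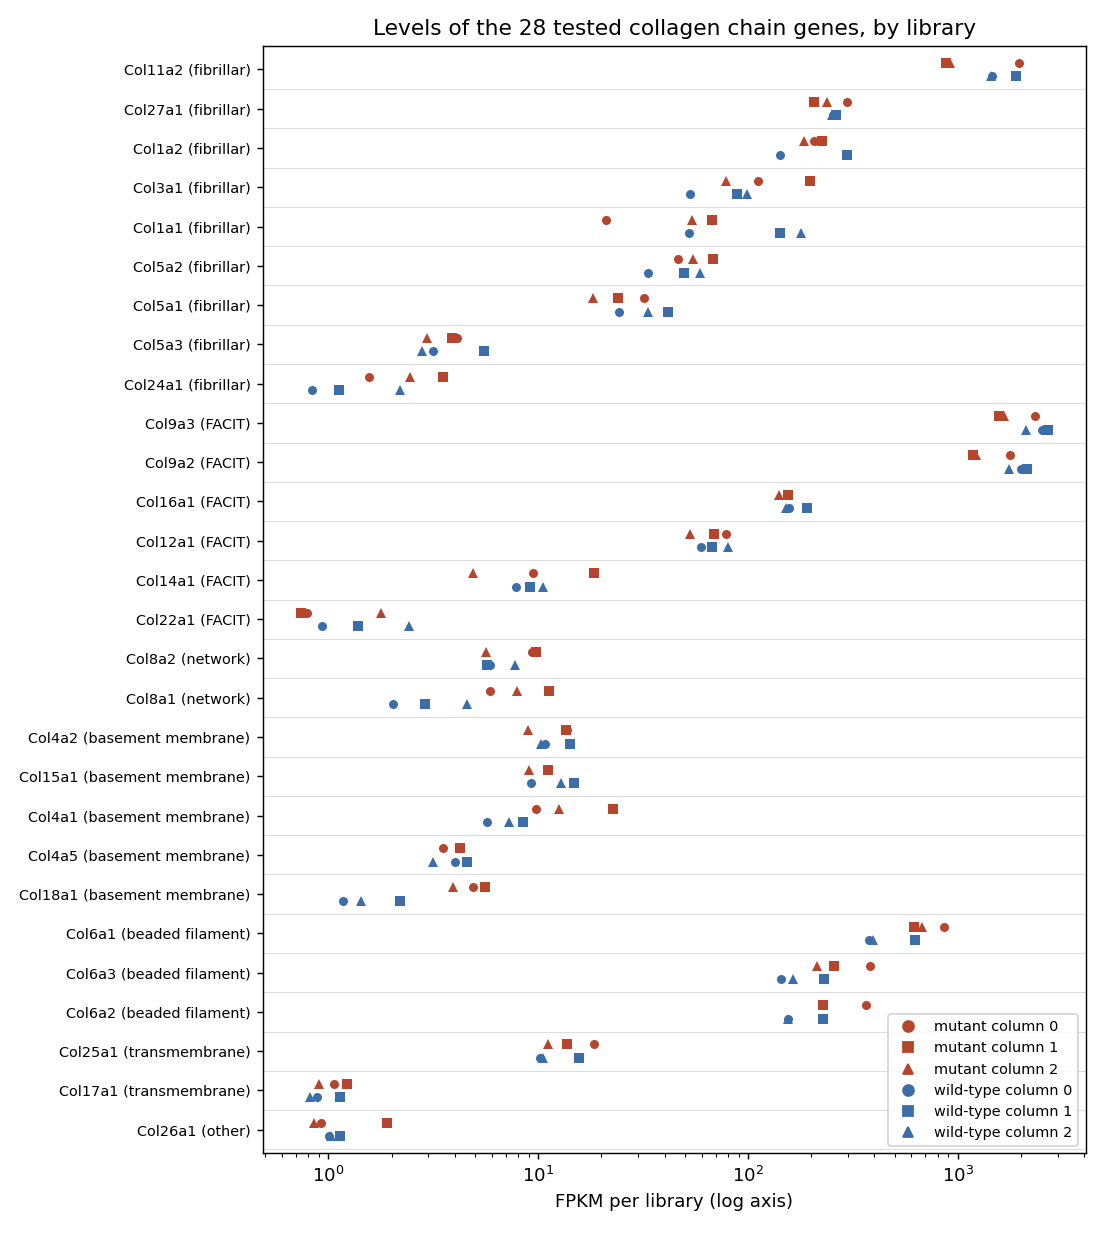
FPKM of the 28 tested collagen chains (rows, by structural class) on a log axis, 1 point per library, mutant in red above wild type in blue. Col9a3, Col9a2 and Col11a2 lie farthest right, and red and blue overlap except for Col18a1, Col8a1 and Col4a1.

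The levels formed a steep order. Col9a3 (mean over the 6 libraries 2145 FPKM), Col9a2 (1676 FPKM) and Col11a2 (1420 FPKM) stood at the top, with overlapping ranges. Next came Col6a1 (591 FPKM), and then Col27a1 (251 FPKM), Col6a3 (231 FPKM), Col6a2 (226 FPKM) and Col1a2 (225 FPKM), which did not separate over the libraries. The 40 chains together held 1.45, 0.945 and 1.01% of all FPKM in mutant and 1.18, 1.58 and 1.26% in wild-type libraries. Mutant columns 1 and 2 were below every wild-type library in this share, and mutant column 0 was inside the wild-type range.

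Col18a1 encodes type XVIII collagen, a basement-membrane proteoglycan whose C-terminal fragment is endostatin. It measured 4.87, 5.60 and 3.92 FPKM in mutant and 1.17, 2.19 and 1.44 FPKM in wild-type libraries, and each mutant library was above each wild-type library. The means were 4.80 ± 0.841 FPKM in mutant and 1.60 ± 0.528 FPKM in wild-type libraries (SD, n = 3 each), a ratio of 3.00 (log2 fold change 1.17, SE 0.188, limma adjusted p = 0.030). The call was lost without mutant column 0, 1 or 2 (adjusted p = 0.063, 0.085 and 0.076) and without wild-type column 0 or 2 (0.096 and 0.11). It was also lost with the Y-linked level as covariate (adjusted p = 0.28), with the replicate number as a block (0.094) and with no filter on low genes (0.059). Fits with this covariate, here and below, cannot tell genotype from the Y-linked level, which nearly follows it. The log2 fold change was 1.03 to 1.56 across settings. The gene spans 77052178 to 77166548 on the minus strand of chromosome 10 (mm10). Slc19a1 and Gm7775 overlap it on the other strand, and whether the counting used strand is not given in the sources used here.

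Col18a1 has an outer and an inner start, which give forms of different length that a value per gene does not separate. Both RefSeq windows (GRCm38.p6, minus strand, 250 bases before to 50 after the start) are shown because this chain passed, chr10:77166481-77166780 for the outer and chr10:77113656-77113955 for the inner start. Capitals mark the GC box, GGGCGG on either strand.
Col18a1 outer start: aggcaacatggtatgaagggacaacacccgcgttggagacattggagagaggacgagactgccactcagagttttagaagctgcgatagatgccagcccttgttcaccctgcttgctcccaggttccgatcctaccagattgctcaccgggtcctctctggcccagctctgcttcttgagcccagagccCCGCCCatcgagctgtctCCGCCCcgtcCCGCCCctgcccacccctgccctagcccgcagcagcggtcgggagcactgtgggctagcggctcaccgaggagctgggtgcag
Col18a1 inner start: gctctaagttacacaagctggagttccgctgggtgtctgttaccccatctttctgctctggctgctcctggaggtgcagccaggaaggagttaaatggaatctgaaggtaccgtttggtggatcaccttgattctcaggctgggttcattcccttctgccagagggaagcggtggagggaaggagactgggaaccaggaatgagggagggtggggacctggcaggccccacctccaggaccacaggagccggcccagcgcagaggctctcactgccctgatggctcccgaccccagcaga
The outer window holds 3 GC boxes and the inner 0. Of the 34 windows found for 32 of the 40 chains, 64.7% hold a GC box, against 35.7% of all 32851 windows of this length. Most collagen windows are above the median of all windows, 52.67% G or C, and the shares were not corrected for this. The TATA box, TATAAA on either strand, is in 11.8% of the collagen windows and 13.6% of all, and the CCAAT box, CCAAT on either strand, in 32.4% and 37.4%. These matches describe letters only.

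Type IV collagen, the network of basement membranes, is built in most tissues from Col4a1 and Col4a2. Col4a1 measured 9.81, 22.6 and 12.6 FPKM in mutant and 5.71, 8.49 and 7.28 FPKM in wild-type libraries. All mutant libraries lay above all wild-type libraries, with mutant column 1 the highest. Col4a2 measured 13.7, 13.5 and 8.91 FPKM in mutant and 10.8, 14.2 and 10.4 FPKM in wild-type libraries, with overlapping groups. Neither passed (Col4a1 log2 fold change 0.91, SE 0.307, limma adjusted p = 0.15; Col4a2 log2 fold change 0.02, SE 0.196, limma adjusted p = 0.97). For Col4a1 the log2 fold change was 0.59 without mutant column 1 (adjusted p = 0.18) and -0.32 with a Y-linked covariate (adjusted p = 0.81).

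The genes start head to head on chromosome 8 and overlap by 22 bases (Col4a1 11198423 to 11312826, minus strand; Col4a2 11312805 to 11449287, plus strand; mm10). Their RefSeq windows (GRCm38.p6), chr8:11312777-11313076 for Col4a1 and chr8:11312555-11312854 for Col4a2, are shown because both chains start from 1 stretch of DNA. Each is written along its own strand, and capitals mark the 78 bases they share.
Col4a1: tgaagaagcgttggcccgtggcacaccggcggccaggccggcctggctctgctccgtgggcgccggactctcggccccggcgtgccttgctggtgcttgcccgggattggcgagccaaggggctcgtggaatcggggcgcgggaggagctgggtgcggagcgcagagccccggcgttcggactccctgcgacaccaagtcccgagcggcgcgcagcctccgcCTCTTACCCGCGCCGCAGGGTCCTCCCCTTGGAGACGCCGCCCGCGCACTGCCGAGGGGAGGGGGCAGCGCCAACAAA
Col4a2: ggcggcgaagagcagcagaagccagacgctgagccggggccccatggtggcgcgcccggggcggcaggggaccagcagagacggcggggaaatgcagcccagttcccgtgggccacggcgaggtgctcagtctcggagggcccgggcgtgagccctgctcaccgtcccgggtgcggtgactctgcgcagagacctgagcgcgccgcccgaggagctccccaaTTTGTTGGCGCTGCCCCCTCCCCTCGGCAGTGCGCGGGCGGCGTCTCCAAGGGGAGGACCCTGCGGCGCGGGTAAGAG
The ratio of Col4a1 to Col4a2 was 0.717, 1.67 and 1.41 in mutant and 0.529, 0.599 and 0.703 in wild-type libraries. The mutant values were the higher, by a narrow margin at mutant column 0.

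The basement-membrane class had 5 of 9 chains tested, of which 1 rose and 0 fell (median log2 fold change 0.03). Col15a1, the relative of Col18a1, measured 11.1, 11.1 and 9.02 FPKM in mutant and 9.25, 14.7 and 12.8 FPKM in wild-type libraries (log2 fold change -0.20, SE 0.177, limma adjusted p = 0.52), with overlapping groups. The X-linked Col4a5 averaged 3.99 ± 0.402 FPKM in mutant and 3.93 ± 0.722 FPKM in wild-type libraries (SD, n = 3 each; limma adjusted p = 0.93). Its neighbour Col4a6 averaged 0.926 ± 0.150 FPKM in mutant and 0.828 ± 0.147 FPKM in wild-type libraries and was not tested, and neither were Col4a3, Col4a4 and Col7a1, each with a mean of at most 0.198 FPKM. Endothelial markers, of cells that lie on a basement membrane, summed to 1.42 to 11.3 FPKM in mutant and 2.69 to 4.66 FPKM in wild-type libraries, lowest in mutant column 0, and of the 3 of 6 tested none passed. Their part in Col4a1 and Col18a1 was not tested.

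Type VIII collagen is a lattice-forming collagen of vessel walls and other matrices. Its chain Col8a1 measured 5.89, 11.2 and 7.90 FPKM in mutant and 2.04, 2.88 and 4.55 FPKM in wild-type libraries, with no overlap between groups. Its log2 fold change was 1.17 (SE 0.295) and did not pass (limma adjusted p = 0.079), and with the Y-linked covariate it was 0.11 (adjusted p = 0.94). Its partner Col8a2 measured 9.37, 9.78 and 5.63 FPKM in mutant and 5.88, 5.69 and 7.77 FPKM in wild-type libraries (log2 fold change 0.29, SE 0.220, limma adjusted p = 0.47), with overlapping groups, and had a log2 fold change of 0.63 with the covariate (adjusted p = 0.60). The ratio of Col8a1 to Col8a2 was 0.628, 1.15 and 1.40 in mutant and 0.346, 0.506 and 0.586 in wild-type libraries. Both network chains were tested, with a median log2 fold change of 0.73.

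**Figure D2:**
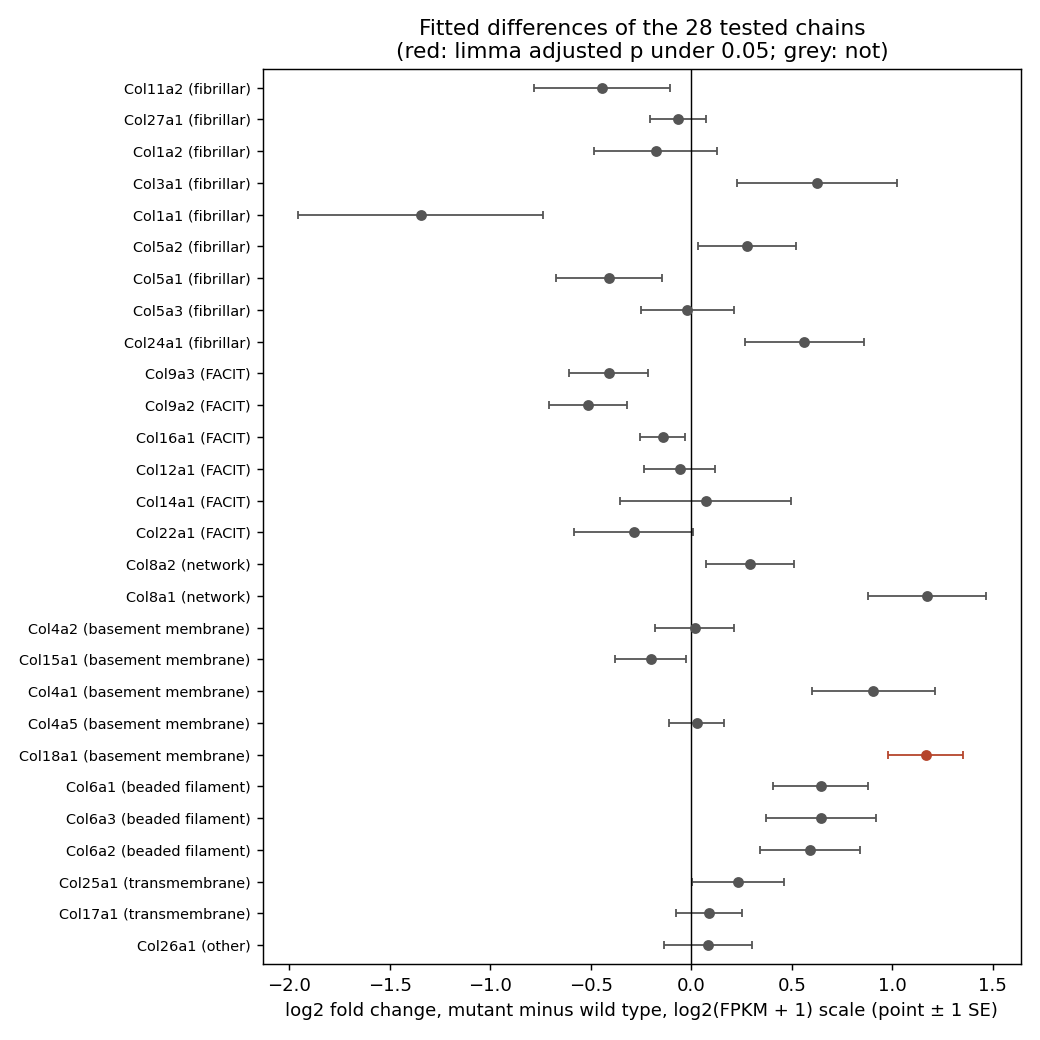
Log2 fold change (x axis, mutant minus wild type on the log2(FPKM + 1) scale) of the 28 tested chains (rows), as points with bars of 1 SE from 3 libraries per group. Col18a1, in red, passed at 1.17; Col1a1, at -1.35, has the widest bar.

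The beaded filaments of type VI collagen are made from Col6a1, Col6a2 and a longer chain such as Col6a3. Col6a1 measured 862, 616 and 671 FPKM in mutant and 379, 623 and 395 FPKM in wild-type libraries. Col6a2 measured 364, 228 and 226 FPKM in mutant and 155, 227 and 155 FPKM in wild-type libraries. Col6a3 measured 383, 256 and 213 FPKM in mutant and 143, 231 and 163 FPKM in wild-type libraries. In all 3 genes mutant column 0 was the highest and wild-type column 1 reached into the mutant range. None passed (Col6a1 log2 fold change 0.64, SE 0.237, limma adjusted p = 0.17; Col6a2 log2 fold change 0.59, SE 0.249, limma adjusted p = 0.21; Col6a3 log2 fold change 0.65, SE 0.274, limma adjusted p = 0.22). Without mutant column 0 the log2 fold changes of Col6a2 and Col6a3 were 0.37 and 0.41 (adjusted p = 0.31 and 0.33). With the Y-linked covariate those of Col6a1, Col6a2 and Col6a3 were 1.39, 1.71 and 1.78 (adjusted p = 0.25, 0.14 and 0.17). The class median was 0.64 over 3 of 6 chains tested.

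Ratios within type VI collagen overlapped between the groups. The ratio of Col6a1 to Col6a2 was 2.37, 2.69 and 2.97 in mutant and 2.44, 2.74 and 2.55 in wild-type libraries, and that of Col6a1 to Col6a3 was 2.25, 2.41 and 3.16 in mutant and 2.65, 2.70 and 2.41 in wild-type libraries. Neither ratio set the mutant libraries apart. Col6a2, Col6a1 and Col18a1 follow each other in 1 direction on chromosome 10, with gaps of 85161 and 326009 bases, and Col6a3 is on chromosome 1. The other type VI genes averaged at most 0.0746 FPKM. Col6a4 was listed at 0 in mutant columns 1 and 2 and wild-type column 1, and Col6a5 in mutant column 0.

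Type IX and XI chains, which coat and core the cartilage fibril, were the most abundant. Col9a3 measured 2323, 1568 and 1664 FPKM in mutant and 2521, 2687 and 2106 FPKM in wild-type libraries. Col9a2 measured 1772, 1181 and 1223 FPKM in mutant and 1986, 2143 and 1752 FPKM in wild-type libraries. Col11a2 measured 1946, 874 and 919 FPKM in mutant and 1454, 1890 and 1435 FPKM in wild-type libraries. In all 3 genes mutant columns 1 and 2 were below every wild-type library, while mutant column 0 was inside the wild-type range for Col9a3 and Col9a2 and just above it for Col11a2. None passed (Col9a3 log2 fold change -0.41, SE 0.196, limma adjusted p = 0.26; Col9a2 log2 fold change -0.51, SE 0.193, limma adjusted p = 0.18; Col11a2 log2 fold change -0.44, SE 0.338, limma adjusted p = 0.47). Without mutant column 0 the log2 fold change of Col11a2 was -0.82 (adjusted p = 0.063). With the Y-linked covariate the values for Col9a3, Col9a2 and Col11a2 were 0.46, 0.40 and 1.36 (adjusted p = 0.46, 0.46 and 0.13).

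The ratio of Col9a2 to Col9a3, partners in type IX collagen, was 0.763, 0.753 and 0.735 in mutant and 0.788, 0.797 and 0.832 in wild-type libraries. The mutant values were all lower, by a factor of 0.931 between the means. Acan, the main cartilage proteoglycan, measured 1516, 540.5 and 412 FPKM in mutant and 905, 1062 and 926 FPKM in wild-type libraries, also with mutant columns 1 and 2 below and mutant column 0 above the wild-type libraries. The other chondrocyte markers did not all share this order. Hapln1, Matn1 and Ucma did not have mutant columns 1 and 2 both below the wild-type libraries. For Comp, Matn3, Cnmd, Snorc and Sox9 mutant column 0 was below them as well, and for Chad it was inside their range. Of the 10 chondrocyte markers 2 fell, Comp and Matn3, 0 rose and 8 did not pass, against 3.48% of all genes tested that rose and 2.59% that fell. The part of the markers in the cartilage chains was not tested.

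**Figure D3:**
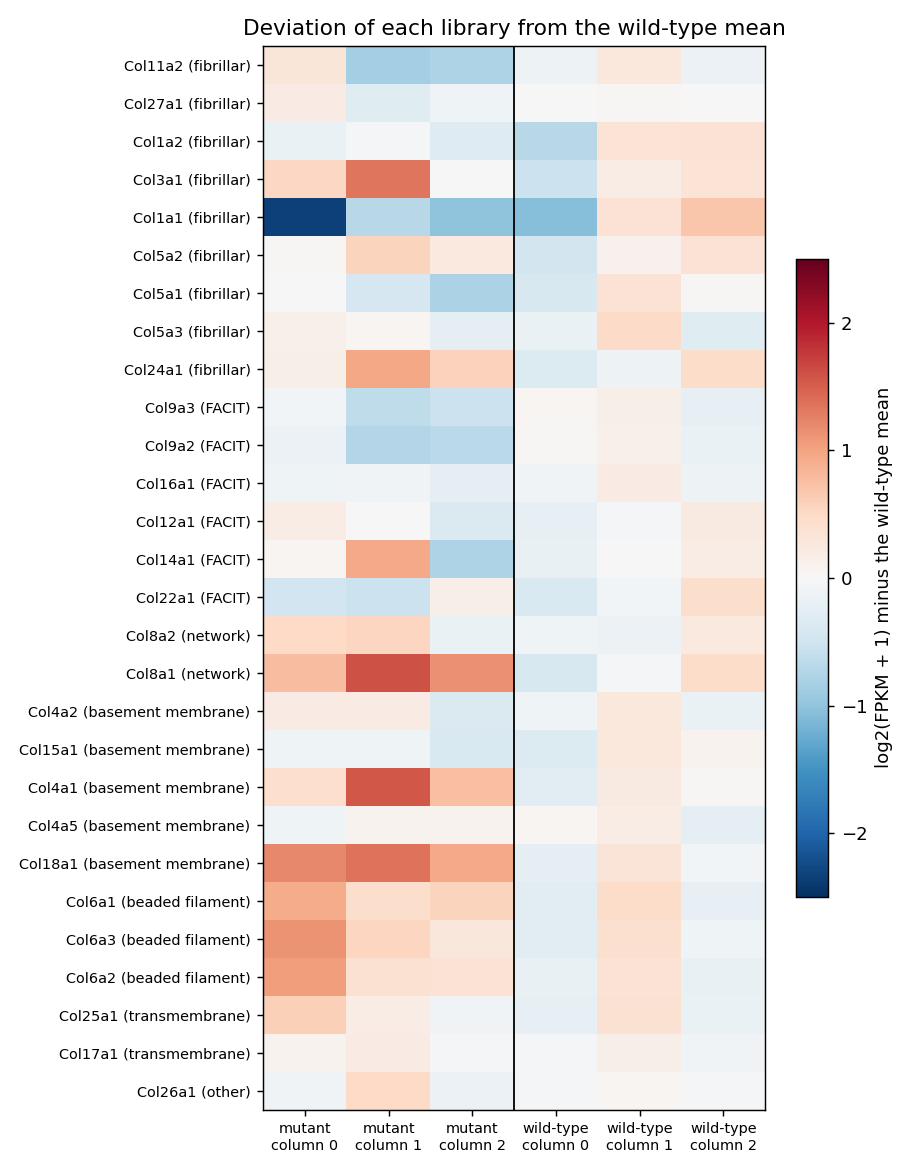
Log2(FPKM + 1) of each tested chain (rows) in each library (columns, mutant left) minus the mean of the 3 wild-type libraries, red higher and blue lower. Mutant columns 1 and 2 are blue for Col11a2, Col9a3 and Col9a2, mutant column 1 is deepest red for Col8a1, Col4a1, Col18a1 and Col3a1, and mutant column 0 is deep blue for Col1a1.

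Col27a1, a fibrillar chain of cartilage, measured 296, 206 and 238 FPKM in mutant and 253, 261 and 252 FPKM in wild-type libraries (log2 fold change -0.07, SE 0.141, limma adjusted p = 0.81). The wild-type libraries lay close together inside the mutant range. Of the 9 fibrillar chains all were tested, 0 rose and 0 fell in limma, and 0 had an unadjusted p under 0.05 (median log2 fold change -0.07).

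Type I collagen, the fibril of bone, tendon and perichondrium, is a trimer of Col1a1 and Col1a2. Col1a1 measured 21.0, 67.3 and 53.9 FPKM in mutant and 52.1, 142 and 178 FPKM in wild-type libraries. Mutant column 0 was the lowest and wild-type column 0 lay among the mutant libraries. Its log2 fold change of -1.35 was the lowest of the tested chains and did not pass (SE 0.612, limma adjusted p = 0.24), and it was -0.86 without mutant column 0 (adjusted p = 0.39) and -3.78 with the Y-linked covariate (adjusted p = 0.20). Col1a2 measured 206, 225 and 185 FPKM in mutant and 142, 296 and 297 FPKM in wild-type libraries (log2 fold change -0.18, SE 0.305, limma adjusted p = 0.76), with the mutant libraries inside the wild-type range.

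The ratio of Col1a1 to Col1a2 was 0.102, 0.299 and 0.291 in mutant and 0.367, 0.481 and 0.601 in wild-type libraries, with every mutant library below every wild-type library. The means were 0.231 ± 0.111 in mutant and 0.483 ± 0.117 in wild-type libraries (SD, n = 3 each). Osteoblast markers, genes of bone-forming cells, summed to 51.4 to 231 FPKM in mutant and 66.4 to 187 FPKM in wild-type libraries, and 0 of 7 passed in limma or had an unadjusted p under 0.05. Ibsp, a bone matrix protein among them, measured 16.9, 52.1 and 171 FPKM in mutant and 36.7, 61.9 and 130.2 FPKM in wild-type libraries. Mutant column 2 was the highest for Ibsp, and the part of bone-forming cells in type I collagen was not tested.

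Type III and V chains accompany type I in soft connective tissue. Col3a1 measured 112, 198 and 78.1 FPKM in mutant and 53.0, 88.6 and 98.8 FPKM in wild-type libraries (log2 fold change 0.62, SE 0.397, limma adjusted p = 0.39), and without mutant column 1 its log2 fold change was 0.27 (adjusted p = 0.68) and with the Y-linked covariate 0.20 (adjusted p = 0.93). Col5a2, which ends 24614 bases from Col3a1 on chromosome 1 in the opposite direction, measured 46.6, 68.2 and 54.7 FPKM in mutant and 33.2, 49.4 and 59.0 FPKM in wild-type libraries (log2 fold change 0.28, SE 0.243, limma adjusted p = 0.52). Mutant column 1 was the highest library for both, and the groups overlapped. Col5a1 measured 31.97, 24.0 and 18.2 FPKM in mutant and 24.3, 41.6 and 33.2 FPKM in wild-type libraries (log2 fold change -0.41, SE 0.264, limma adjusted p = 0.40), with overlapping groups. The ratio of Col5a1 to Col5a2 was 0.686, 0.352 and 0.333 in mutant and 0.734, 0.843 and 0.563 in wild-type libraries, where mutant column 0 lay inside the wild-type range and the other mutant libraries below it.

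The minor chain Col5a3 averaged 3.65 ± 0.605 FPKM in mutant and 3.83 ± 1.48 FPKM in wild-type libraries (SD, n = 3 each; limma adjusted p = 0.97). Col24a1, a fibrillar chain known from bone, measured 1.57, 3.50 and 2.46 FPKM in mutant and 0.835, 1.12 and 2.19 FPKM in wild-type libraries (log2 fold change 0.56, SE 0.296, limma adjusted p = 0.30), with overlapping groups.

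FACIT chains had 6 of 8 tested, 0 rose and 0 fell, and 1, Col9a2, was lower at an unadjusted p under 0.05 (median log2 fold change -0.21). Col16a1 averaged 149.6 ± 7.68 FPKM in mutant and 166 ± 21.9 FPKM in wild-type libraries (SD, n = 3 each; limma adjusted p = 0.48). Col12a1, of tendon and perichondrium, averaged 66.6 ± 12.7 FPKM in mutant and 69.0 ± 10.5 FPKM in wild-type libraries (limma adjusted p = 0.88), and Col22a1, of tissue junctions such as that of muscle and tendon, averaged 1.10 ± 0.593 FPKM in mutant and 1.58 ± 0.755 FPKM in wild-type libraries (limma adjusted p = 0.59). The groups of all 3 overlapped. Col14a1, of tendon and skin, measured 9.47, 18.4 and 4.90 FPKM in mutant and 7.83, 9.13 and 10.5 FPKM in wild-type libraries (log2 fold change 0.07, SE 0.426, limma adjusted p = 0.94), with mutant libraries on both sides of the wild-type range.

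Mutant column 1, the highest for Col14a1, Col3a1, Col5a2 and Col4a1, was also the highest for Postn and for the tendon markers Tnmd and Thbs4. Among the tested chains it was the highest for Col18a1, Col8a1, Col8a2, Col24a1, Col26a1 and Col17a1 too. Col12a1, Col1a1 and Col1a2 were instead highest in wild-type column 2. Of the fibroblast and perichondrium markers, Dcn and Lum were highest in wild-type libraries and Fbn1 in mutant column 0. The 5 tendon markers summed to 10.0 to 51.4 FPKM in mutant and 5.81 to 12.1 FPKM in wild-type libraries, with the highest sum in mutant column 1, and Mkx was highest in wild-type column 2. Of the 4 tested 0 passed in limma or had an unadjusted p under 0.05. Postn, a matrix protein of perichondrium and fibroblasts, measured 69.5, 265 and 69.2 FPKM in mutant and 45.7, 64.5 and 80.8 FPKM in wild-type libraries. The 10 fibroblast and perichondrium markers summed to 764 to 1108 FPKM in mutant and 1239 to 1298 FPKM in wild-type libraries. Dcn and Lum made up most of these sums. Of the 6 markers tested 3 fell, Dcn, Lum and Gli1, and 0 rose, against 2.59% of all genes tested that fell and 3.48% that rose. Pdgfra went the other way without overlap and did not pass (limma adjusted p = 0.31). Thy1, which was not tested, was also higher in every mutant library, by a narrow margin at mutant column 0. The groups overlapped for Postn, Fbn1, Dpt, Tnxb and Twist2. The part of these cells in the chains was not tested.

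Transmembrane chains had 2 of 4 tested, and neither passed. Col25a1, known from neurons, measured 18.49, 13.7 and 11.2 FPKM in mutant and 10.2, 15.7 and 10.5 FPKM in wild-type libraries (limma adjusted p = 0.57). Col17a1, which anchors epidermal cells, measured 1.07, 1.22 and 0.899 FPKM in mutant and 0.879, 1.13 and 0.814 FPKM in wild-type libraries (limma adjusted p = 0.78). The groups of both overlapped. Of the other 2 chains Col26a1 measured 0.924, 1.90 and 0.851 FPKM in mutant and 1.01, 1.14 and 1.03 FPKM in wild-type libraries (limma adjusted p = 0.85), and Col28a1 averaged 0.102 ± 0.0661 FPKM in mutant and 0.0802 ± 0.0272 FPKM in wild-type libraries and was not tested.

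The filter left out 12 chains, with Col17a1 (mean 1.002 FPKM) just inside and Col13a1 (0.960 FPKM) and Col4a6 (0.877 FPKM) just outside. Col19a1, a FACIT chain, measured 0.377, 0.250 and 0.320 FPKM in mutant and 0.1004, 0.138 and 0.166 FPKM in wild-type libraries. Col23a1, a transmembrane chain, measured 0.278, 0.560 and 0.170 FPKM in mutant and 0.0741, 0.0766 and 0.162 FPKM in wild-type libraries. In both every mutant library was above every wild-type library, without a test, and the other 10 had overlapping groups. Among all 13722 genes left out by the filter with a mean above 0 FPKM, 13.7% did not overlap, 6.90% being higher in mutant libraries. Col20a1, a FACIT chain, averaged 0.293 ± 0.0742 FPKM in mutant and 0.310 ± 0.0993 FPKM in wild-type libraries.

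**Figure D4:**
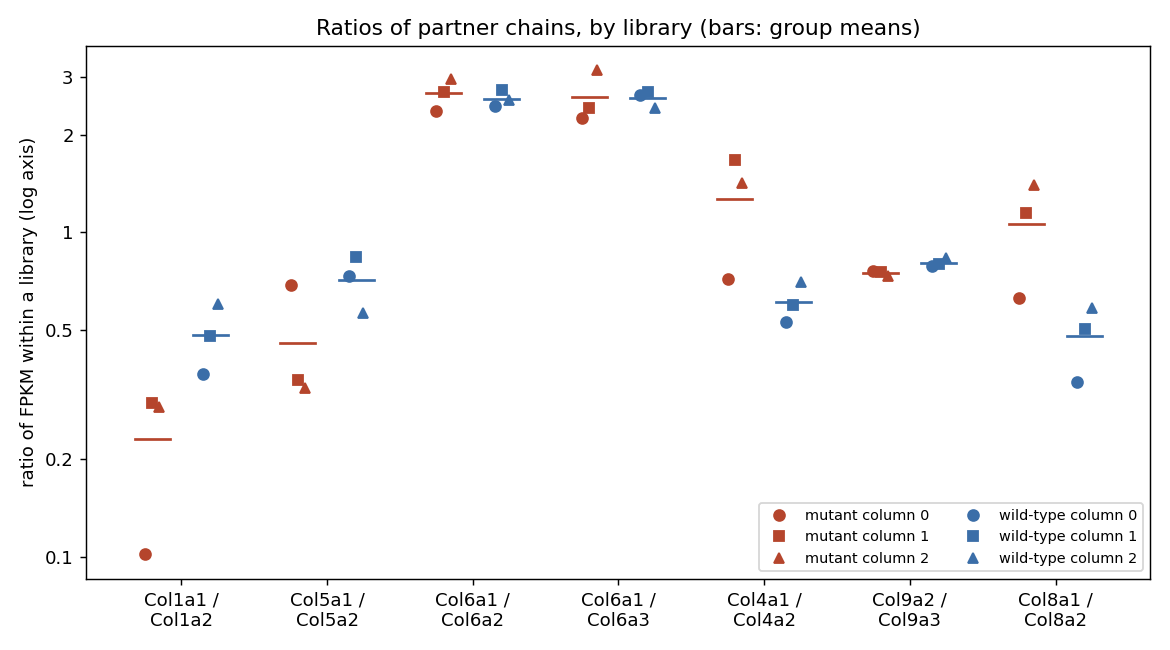
Ratio of the FPKM of 2 partner chains within each library (log y axis), mutant in red left of wild type in blue, with bars at group means. Mutant points lie below wild type for Col1a1 to Col1a2 and Col9a2 to Col9a3 and above for Col4a1 to Col4a2 and Col8a1 to Col8a2; both type VI ratios overlap.

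Of the 7 partner ratios given above, 4 had groups that did not overlap. With 3 libraries against 3, no two-sided exact permutation p can be below 0.1, which those 4 reached (0.175 after Benjamini-Hochberg adjustment over the 7). The exact permutation p was 0.2 for Col5a1 to Col5a2, 0.7 for Col6a1 to Col6a2 and 0.9 for Col6a1 to Col6a3. A test with that floor gives no call on a ratio in either direction, so the ratios are given as values.

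Genes that act on the chains were read by role. Of 23 genes of folding, modification and export 1 rose, 0 fell and 22 did not pass, against 3.48% of all genes tested that rose and 2.59% that fell. The median log2 fold change was -0.16. P3h2, a prolyl 3-hydroxylase known to act on type IV collagen, rose, at 52.5, 55.3 and 59.1 FPKM in mutant and 27.99, 35.3 and 28.2 FPKM in wild-type libraries (log2 fold change 0.85, SE 0.110, limma adjusted p = 0.018). It lost its call without mutant column 1 or 2 (adjusted p = 0.061 and 0.077) or wild-type column 0 or 2 (0.072 and 0.076). P3h3, of the same family, averaged 41.1 ± 1.63 FPKM in mutant and 54.3 ± 5.38 FPKM in wild-type libraries (limma adjusted p = 0.066). The collagen chaperone Serpinh1 averaged 1974 ± 349 FPKM in mutant and 2177 ± 177 FPKM in wild-type libraries (limma adjusted p = 0.60), and P4hb, a subunit of prolyl 4-hydroxylase, averaged 937 ± 67.7 FPKM in mutant and 1047 ± 72.4 FPKM in wild-type libraries (limma adjusted p = 0.41).

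Of 13 genes that trim procollagen or crosslink fibrils 11 were tested, of which 0 rose, 4 fell and 7 did not pass, against 3.48% of all genes tested that rose and 2.59% that fell (median log2 fold change 0.08). Bmp1, the procollagen C-proteinase, fell, at 22.5, 23.3 and 23.7 FPKM in mutant and 29.5, 31.7 and 29.5 FPKM in wild-type libraries (log2 fold change -0.37, SE 0.0611, limma adjusted p = 0.032). Pcolce, its enhancer, fell, at 31.5, 47.2 and 37.6 FPKM in mutant and 64.2, 73.1 and 66.3 FPKM in wild-type libraries (log2 fold change -0.81, SE 0.154, limma adjusted p = 0.042). The groups of neither overlapped. The crosslinking enzymes Loxl1 and Loxl2 fell, Loxl1 at 13.0 ± 1.28 FPKM in mutant and 17.5 ± 0.290 FPKM in wild-type libraries (limma adjusted p = 0.047) and Loxl2 at 17.7 ± 2.38 FPKM in mutant and 32.6 ± 6.55 FPKM in wild-type libraries (limma adjusted p = 0.045; SD, n = 3 each). Pcolce2 averaged 113 ± 7.59 FPKM in mutant and 107 ± 6.11 FPKM in wild-type libraries and Loxl3 122 ± 34.9 FPKM in mutant and 83.4 ± 2.24 FPKM in wild-type libraries, without passing (limma adjusted p = 0.60 and 0.18). Lox, chosen after its values were seen, averaged 54.8 ± 4.47 FPKM in mutant and 32.8 ± 6.65 FPKM in wild-type libraries (limma adjusted p = 0.059). Loxl4, chosen likewise, averaged 91.8 ± 3.52 FPKM in mutant and 62.4 ± 9.24 FPKM in wild-type libraries (limma adjusted p = 0.056). Groups did not overlap for Lox, Loxl3 and Loxl4, all higher in mutant libraries, nor for Loxl1 and Loxl2, both lower. Over all genes tested 32.2% did not overlap. Bmp1, Loxl1 and Loxl2 lost their calls whichever 1 library was left out, and Pcolce kept its call only without mutant column 1. The number of the list that fell was 0 without mutant column 0 or 2 or any 1 wild-type library and 2 without mutant column 1.

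Of 8 collagen receptors 6 were tested, and 0 passed in limma or had an unadjusted p under 0.05. Over all genes tested 6.07% passed and 24.7% had such an unadjusted p. Itgb1, the integrin beta subunit, averaged 171 ± 12.4 FPKM in mutant and 149 ± 12.3 FPKM in wild-type libraries (limma adjusted p = 0.26), its partner Itga1 13.3 ± 2.80 FPKM in mutant and 11.01 ± 0.832 FPKM in wild-type libraries (limma adjusted p = 0.39) and the collagen-activated kinase Ddr2 65.0 ± 15.4 FPKM in mutant and 54.6 ± 0.466 FPKM in wild-type libraries (limma adjusted p = 0.46). Of 8 genes of collagen breakdown 1 rose, 1 fell and 6 did not pass, against 3.48% of all genes tested that rose and 2.59% that fell. The gelatinase Mmp2 rose, at 114, 114 and 107 FPKM in mutant and 78.7, 82.8 and 79.2 FPKM in wild-type libraries (log2 fold change 0.47, SE 0.0631, limma adjusted p = 0.020). Mmp8, a collagenase best known from neutrophils, fell, at 0.147, 0.304 and 0.208 FPKM in mutant and 2.72, 2.68 and 5.77 FPKM in wild-type libraries (log2 fold change -1.89, SE 0.273, limma adjusted p = 0.023). Neither had overlapping groups. Mmp2 lost its call without mutant column 1 or 2 or wild-type column 0, 1 or 2, and Mmp8 without mutant column 0, 1 or 2 or wild-type column 0 or 1. Ctsk, the collagen-cutting protease of osteoclasts, averaged 113 ± 64.6 FPKM in mutant and 56.8 ± 10.1 FPKM in wild-type libraries (limma adjusted p = 0.26).

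Of 10 transcription factors of collagen genes 0 passed in limma, and at an unadjusted p under 0.05 there was 1 higher, Mef2c, and 1 lower, Runx2. At that unadjusted p 12.7% of all genes tested were higher and 12.0% lower. Sox9, which drives cartilage collagen genes, measured 70.6, 56.4 and 38.9 FPKM in mutant and 77.7, 74.3 and 75.2 FPKM in wild-type libraries (log2 fold change -0.49, SE 0.211, limma adjusted p = 0.22). All mutant libraries were below all wild-type libraries, mutant column 0 the nearest. Its partner Sox6 averaged 41.6 ± 7.22 FPKM in mutant and 50.2 ± 0.892 FPKM in wild-type libraries (limma adjusted p = 0.24). Mef2c averaged 33.3 ± 3.74 FPKM in mutant and 27.3 ± 2.35 FPKM in wild-type libraries and Runx2, a driver of hypertrophy and bone, 9.61 ± 1.48 FPKM in mutant and 12.8 ± 2.18 FPKM in wild-type libraries (limma adjusted p = 0.19 and 0.20).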

How the data were processed

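RNA sequencing of 3 mutant and 3 wild-type samples was read from 1 table, in which the authors deposited FPKM per gene and library. Build mm10 and the tools STAR, Cufflinks and Cuffdiff are named in the submitters' processing notes. Per the labels' protocols, ribosomal RNA was removed, libraries were strand-specific and CLC Genomics Workbench was used. Versions, and any scaling between libraries, are not given in the sources used here. Of the 6 columns 4 matched a sample by group and number, and column 2 of each group was assigned to its group only.

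Values were transformed as log2(FPKM + 1), filtered at 1 FPKM on average and fitted with limma 3.58.1 in R 4.3.3 (eBayes with trend=TRUE), two-sided. The fit was run on simulated data with independent noise of the typical spread at each level. That run did not model the wider spread of the collagen chains or differences shared by many genes, and its changed genes lay above the level of Col18a1. Coordinates are from GENCODE M21 and promoter windows from RefSeq. The members and lists were chosen with earlier results of these data known. Values per library are given for chains that passed, the 2 highest and the 2 with the smallest p of each class, and partner chains, and from lists for members that passed, the 2 highest and the 2 with the smallest p. Marker genes beside a result and other chains given per library were chosen after their values were seen. Alternatives were other pseudocounts, filters and scalings, a robust prior, library weights, a replicate block, a Y-linked covariate and leaving out libraries.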

Additional observations from a re-analysis of the deposited data

How the results depend on the processing

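Under other settings the number of chains that rose was 0 with no filter, with a minimum mean of 5 FPKM (which leaves Col18a1 untested), with the replicate block, with the Y-linked covariate and without mutant column 0 and wild-type column 0 (a setting chosen after seeing the data), and 0 to 1 on leaving out 1 library. In all settings run 0 chains fell. The median of the chains was 0.29 with the Y-linked covariate and -0.034 to 0.17 on leaving out 1 library. Of all genes 850 changed as reported, 461 with no filter, 1488 with library weights, 60 with the replicate block, 236 with the covariate, 116 without both columns 0 and 174 to 666 on leaving out 1 library. Same-numbered libraries did not deviate together (correlations -0.033, -0.042, -0.023), so the replicate block rests on a shared number only. The Y-linked level nearly follows genotype over these libraries, so fits with the covariate cannot tell them apart. The cause of these shifts was not tested.

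Of 465 values of single chains under alternatives, 425 kept direction and call, 9 lost the call (all of Col18a1) and 31 changed sign, none of them called. With the covariate the sign changed for Col9a3 (0.46), Col9a2 (0.40), Col11a2 (1.36), Col27a1 (0.61), Col12a1 (0.45), Col5a2 (-0.41), Col5a1 (0.50), Col4a1 (-0.32), Col14a1 (-0.19), Col4a5 (-0.25), Col5a3 (0.37), Col24a1 (-0.53), Col26a1 (-0.40). With library weights Col5a3 was 0.027, and without both columns 0 Col25a1 was -0.051, Col4a2 -0.13 and Col14a1 -0.014. Leaving out 1 library gave -0.18 to 0.097 for Col12a1, -0.36 to 0.50 for Col14a1, -0.20 to 0.057 for Col27a1, -0.079 to 0.20 for Col4a2, -0.091 to 0.12 for Col4a5, -0.17 to 0.22 for Col5a3.

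Among supporting lists, 0 folding genes rose with the block, the covariate or without both columns 0, and 1 fell with quantile normalization or library weights. Of processing genes 1 rose with median-of-ratios scaling, the covariate or a minimum mean of 5 FPKM and 2 with the robust prior or library weights, while 1 fell with no filter and 0 with the block, the covariate or without both columns 0. With the covariate 1 receptor rose. Of breakdown genes 0 rose and 0 fell with the block, the covariate or without both columns 0, and 0 fell with a minimum mean of 5 FPKM. Leaving out 1 library gave 0 to 1 folding genes that rose, 0 to 2 processing genes that fell, 0 to 1 breakdown genes in each direction and 0 to 1 transcription factors that fell. Read counts were not analysed, so low chains carry no counting interval.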

Other observations

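Collagen chains varied between libraries of 1 group. The median within-group SD on the log2(FPKM + 1) scale was 0.33 over the 28 chains and 0.16 over all genes tested. It was highest for Col1a1 (0.90), Col14a1 (0.62) and Col3a1 (0.58), and lowest for Col17a1 (0.12), Col16a1 (0.14) and Col4a5 (0.17). This scale understates the spread of low genes, among them Col17a1 and Col4a5, and the comparison with all genes was not matched for level. The FACIT chains summed to 4337, 2992 and 3089 FPKM in mutant and 4731, 5100 and 4102 FPKM in wild-type libraries, led by Col9a3 and Col9a2. The fibrillar chains summed to 2665, 1670 and 1553 FPKM in mutant and 2015, 2775 and 2357 FPKM in wild-type libraries, led by Col11a2, with overlapping groups. The beaded-filament chains summed to 1609, 1100.0 and 1110 FPKM in mutant and 677, 1081 and 713 FPKM in wild-type libraries, where the groups did not overlap, by a narrow margin at wild-type column 1.

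Some markers of other cells differed too, where 3.48% of all genes tested rose and 2.59% fell. Erythroid markers summed to 13.9 to 44.9 FPKM in mutant and 175 to 200.3 FPKM in wild-type libraries, and all 4 tested fell. Skeletal muscle markers summed to 49.7 to 71.8 FPKM in mutant and 139 to 169 FPKM in wild-type libraries, with Tnnt3 the 1 of 4 tested that fell. Tnnt3 made up most of these sums (mean 51.8 FPKM in mutant and 140.6 FPKM in wild-type libraries). The groups overlapped for every other muscle marker. Mural markers summed to 110.1 to 209 FPKM in mutant and 200.5 to 251 FPKM in wild-type libraries, with Acta2 the 1 of 3 tested that fell. Acta2 and Cspg4 made up most of these sums. Pdgfrb went the other way without overlap and did not pass, at 11.6 ± 4.69 FPKM in mutant and 5.86 ± 1.04 FPKM in wild-type libraries (limma adjusted p = 0.14). Macrophage markers summed to 6.53 to 26.5 FPKM in mutant and 9.64 to 22.1 FPKM in wild-type libraries and Schwann markers to 2.11 to 3.26 FPKM in mutant and 1.95 to 2.84 FPKM in wild-type libraries, and none of those tested passed. Adipocyte markers summed to 0.155 to 0.365 FPKM in mutant and 0.0626 to 0.359 FPKM in wild-type libraries, and 0 were tested. Their part in the collagen values was not tested.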
